A study of Mus musculus with 8 samples.

Results

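The genes described here encode the MAP kinase cascade and the proteins that restrain or execute it. They are the genes whose symbol starts with Mapk, Map2k, Map3k, Map4k, Dusp, Spred, Spry, Jun or Fos and whose transcript held at least 1 N6-methyladenosine (m6A) peak, on the peak's own strand, in any of 4 peak lists. The rule found 25 genes of the 4296 with a peak, with 129 of 20732 peaks. The RefSeq table (GRCm38.p6) lists 97 genes with these prefixes, so 72 had no peak in the lists used here.

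The peaks come from RAW264.7, a mouse macrophage cell line, by sequencing of RNA fragments captured with an antibody against m6A, the methylated adenosine that is common in messenger RNA. The control cells had no treatment, and the other cells were exposed for 24 h to 100 µM of TBP, TCP or TIP, abbreviations that the labels do not spell out. Each of the 4 conditions has 1 immunoprecipitated library, whose peak list was used, and 1 input library, not analysed here. Single libraries allow no test between conditions. Ranges in parentheses after a percentage are exact Clopper-Pearson 95% intervals, which cover counting error only.

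The lists differ in length, with 4432 peaks for control, 6285 for TBP, 6981 for TCP and 3034 for TIP, and hold no read counts, so sequencing depth is unknown. The authors' score per peak has no stated scale and starts at a higher value in TIP (10.7) than in the other lists (8.56 to 8.73). Scores were therefore used only to rank peaks within a list, where rank 1 is the strongest. Tied peaks take the best rank of their tie. Peaks at the lowest score tie at ranks 3772 to 4432 in control and 5377 to 6285 in TBP. In TCP that tie runs from 5932 to 6981, and in TIP from 2704 to 3034. A gene without a peak had none called, which differs from being unmethylated. As input was not analysed, less mark, less of the transcript and fewer cells carrying it cannot be told apart. Peaks in control, TBP, TCP and TIP were held by 7, 7, 5 and 4 of 12 macrophage marker genes, against 0 of 20 markers of T cells, B cells, epithelium, endothelium and fibroblasts in every list. Coordinates are on GRCm38 (mm10).

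In a MAP kinase cascade, a MAP4K or a receptor-linked signal switches on a MAP3K, which phosphorylates a MAP2K, which in turn phosphorylates a MAP kinase. In macrophages the p38, JNK and ERK arms answer signals such as bacterial products, stress and growth factors, and their targets include the AP-1 factors Jun and Fos. Dual specificity phosphatases (Dusp) remove the activating phosphates, and Spred and Spry proteins dampen the cascade at the level of Ras and Raf. Many of these genes are induced by the pathway they control, and m6A is best known for marking the last exon and 3′ UTR of messenger RNAs, where it can shorten their lifetime.

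Peaks were called in 18 of the 25 genes for control, 20 for TBP, 21 for TCP and 15 for TIP. These are 72% (50.6 to 87.9), 80% (59.3 to 93.2), 84% (63.9 to 95.5) and 60% (38.7 to 78.9), beside 57.5%, 72.6%, 78.9% and 41.5% of all 4296 genes. A peak in all 4 lists was found for 13 genes, 52.0% (31.3 to 72.2), beside 29.8% of all genes. These 13 were Map3k1, Map3k4, Map2k4, Mapk6, Mapk7, Mapk14, Mapk1ip1l, Dusp3, Dusp11, Dusp16, Jun, Jund and Spred1. Kinases, phosphatases, AP-1 genes and a Ras feedback gene are all among them.

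**Figure D1:**
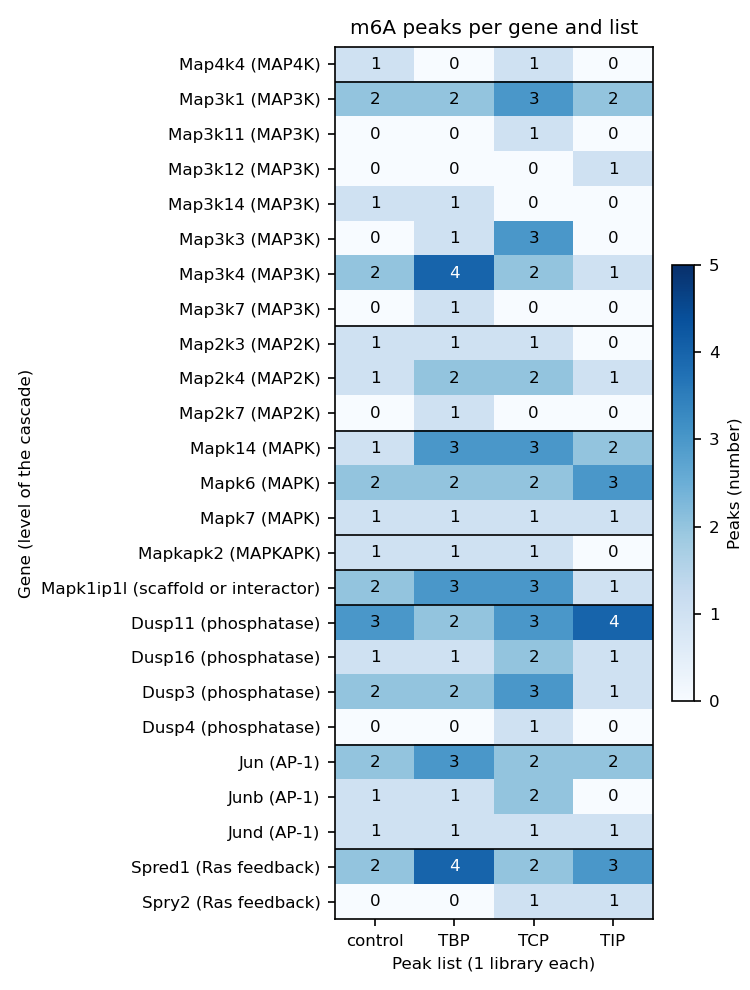
Number of m6A peaks in each of the 25 genes (rows, grouped by level of the cascade) in the control, TBP, TCP and TIP lists (columns, 1 library each). Darker cells hold more peaks. Spred1 in TBP, Map3k4 in TBP and Dusp11 in TIP reach 4 peaks, and 13 genes have at least 1 peak in every column.

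By tier, 15 of the 25 genes encode kinases, 4 phosphatases, 3 AP-1 subunits and 2 Ras feedback proteins, and 1 (Mapk1ip1l) is named for an interaction with a MAP kinase. Where 4 values follow one another without names, they stand for control, TBP, TCP and TIP in this order. A position is a stretch of overlapping peaks merged over the lists, so peaks at the same position need not all overlap each other. The kinases held 13, 20, 20 and 11 peaks. The phosphatases held 6, 5, 9 and 6, the AP-1 genes 4, 5, 5 and 3, and the Ras feedback genes 2, 4, 3 and 4. Genes with a peak were also counted for some well-known branches and families, in groupings chosen after the values were seen. Of 11 MAP2K and MAPK genes of the p38 and JNK arms, 4 had a peak, Map2k3, Map2k4, Map2k7 and Mapk14. All 3 Jun genes had a peak and none of the 4 Fos genes did, beside 25 of the 97 genes with these prefixes. The share of all RefSeq genes with a peak is not given here. Transcript levels were not used here, so how far these absences follow expression was not tested.

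Map4k4, the only 1 of 5 MAP4K genes with a peak, encodes a kinase that feeds the JNK arm. It had 1 peak each in control and TCP and 0 in TBP and TIP. Both peaks lay at one 3′ UTR position on chromosome 1, 40024932 to 40024981 on the plus strand. The control peak ranked 3772 of 4432 and the TCP peak 3095 of 6981.

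Of 18 MAP3K genes, 7 had a peak. Map3k1, which encodes MEKK1, a kinase upstream of JNK, had 2, 2, 3 and 2 peaks. Its transcript carried a pair of positions that were present in every list. The first lay in exon 14 of 20 (chromosome 13, 111755933 to 111756082, minus strand), with peaks at rank 386 of 4432 in control, 432 of 6285 in TBP, 338 of 6981 in TCP and 1017 of 3034 in TIP. The other lay in the 3′ UTR (111748603 to 111748752), at rank 2938, 600, 1895 and 547 in the same order. There the control and TCP peaks adjoined without overlapping. In control the exon peak thus ranked far above the 3′ UTR peak, and in TIP the order of the peaks was the reverse.

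Map3k4, which encodes MEKK4, a kinase upstream of p38 and JNK, had 2, 4, 2 and 1 peaks, all of them in exon 3 of 26. The position present in every list ran from 12270956 to 12271105 on chromosome 17, minus strand. In TBP it was split into 3 peaks of 25 bp, where the other lists had 1 peak of 75 to 150 bp. The larger number of TBP peaks therefore does not stand for more positions: TBP and TCP each covered both Map3k4 positions, as control did, and TIP covered 1. The second position (12271406 to 12271480) had peaks at rank 3291 in control, 4234 in TBP and 2827 in TCP.

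The other MAP3K genes had peaks in 1 or 2 lists. Map3k3, which encodes MEKK3, had 1 peak in TBP, 3 in TCP and 0 in control and TIP. A 3′ UTR position on chromosome 11 (106154299 to 106154323, plus strand) was common to TBP and TCP, and the strongest TCP peak (106154899 to 106154948) ranked 2827 of 6981. Map3k14, which encodes NIK, the kinase of the non-canonical NF-κB pathway, had 1, 1, 0 and 0 peaks. Its control and TBP peaks covered the same 25 bp of the 3′ UTR (chromosome 11, 103219962 to 103219986, minus strand), at rank 3772 of 4432 and 4741 of 6285. The deposited nearest-gene column gives Spata32 for both Map3k14 peaks. Map3k7, which encodes the innate immune kinase TAK1, had 1 peak, in TBP (rank 3423 of 6285). Map3k11, a mixed lineage kinase gene, had 1, in TCP (rank 5932 of 6981).

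Map3k12, which encodes the dual leucine zipper kinase, had 1 peak, in TIP, in its 3′ UTR (chromosome 15, 102498846 to 102498895, minus strand, rank 1687 of 3034). The same TIP list has a plus-strand peak over it (102498834 to 102498908), placed in the 3′ UTR of Pcbp2, which lies there on the other strand. Peaks with such a partner on the other strand made up 3.59% of the TIP list and 3.59% to 4.44% of the 4 lists. The labels do not say whether the libraries keep strand, so whether the Map3k12 peak belongs to Map3k12 or to Pcbp2 cannot be told apart.

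Among the 7 MAP2K genes, 3 had peaks, all in 3′ UTRs. Map2k4, whose product activates JNK and p38, had 1, 2, 2 and 1 peaks. Its main position (chromosome 11, 65690343 to 65690492, minus strand) had a peak in every list, at rank 2323 of 4432 in control, 1393 of 6285 in TBP, 570 of 6981 in TCP and 688 of 3034 in TIP. As a place in its list this was the top 52.4%, 22.2%, 8.17% and 22.7%, so all 3 compound lists placed it higher than control did. For the strongest peaks of all 1281 genes present in every list, the medians were the top 21.7%, 15.9%, 13.8% and 31.2%. How many of those genes stood higher with all 3 compounds is not given here. A second, 25 bp position (65690518 to 65690542) was called in TBP and TCP.

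Map2k3, whose product activates p38, had 1, 1, 1 and 0 peaks. The control and TBP peaks overlapped (60952223 to 60952297 and 60952198 to 60952272 on chromosome 11, plus strand), at rank 1430 and 756. The TCP peak, 25 bp at rank 5229 of 6981, lay just beyond them at 60952323 to 60952347 and did not overlap either. Map2k7, which encodes a JNK activator, had 1 peak, in TBP (rank 3423 of 6285).

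At the level of the MAP kinases, 3 of 13 genes had peaks, and each of the 3 had them in every list. Mapk14, which encodes p38α, the main p38 kinase of macrophages, had 1, 3, 3 and 2 peaks, all in its 3′ UTR. The position nearest the transcript end that all lists shared (chromosome 17, 28748156 to 28748230, plus strand) ranked 1581 of 4432 in control, 1944 of 6285 in TBP, 1642 of 6981 in TCP and 1373 of 3034 in TIP. A further position upstream in the 3′ UTR (28747306 to 28747405) was called with each of the 3 compounds and not in control. It ranked 841 in TBP, 962 in TCP and 1455 in TIP, and in TBP and TCP it was the strongest peak of the gene.

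Mapk6, which encodes the atypical kinase ERK3, had 2, 2, 2 and 3 peaks. Its peaks lay near the junction of the 5′ UTR and exon 2 of 6, not in the 3′ UTR. The position shared by all lists (chromosome 9, 75397985 to 75398184, minus strand) ranked 287 of 4432 in control, 198 of 6285 in TBP, 1083 of 6981 in TCP and 17 of 3034 in TIP, where 301 peaks tie at ranks 17 to 317. The TCP peak there overlapped neither the TBP nor the TIP peak and was joined to them through the control peak. A neighbouring exon position (75397760 to 75397909) had peaks in TBP, TCP and TIP and none in control, and a 5′ UTR position (75398285 to 75398359) was called in control alone. The lists thus held 2 or 3 Mapk6 peaks each, at partly different places. Mapk7, which encodes the large kinase ERK5, had 1 peak in every list, in exon 3 of 6 (chromosome 11, 61491462 to 61491536, minus strand). Its ranks were 1698, 2528, 2219 and 2269, the top 38.3%, 40.2%, 31.8% and 74.8% of the lists.

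Mapkapk2 encodes MK2, the kinase through which p38 stabilises cytokine messenger RNAs, and was 1 of 3 Mapkapk genes listed in RefSeq and the only 1 with a peak. It had 1, 1, 1 and 0 peaks. All 3 lay in the 3′ UTR at chromosome 1, 131055000 to 131055074, minus strand. They ranked 823 of 4432, 289 of 6285 and 320 of 6981, so the TBP and TCP peaks stood in the top 4.60% and 4.58% of their lists and the control peak in the top 18.6%. How common such a difference was over all genes is not given here. Of the genes without a TIP peak, Mapkapk2 had the strongest control peak.

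Mapk1ip1l had 2, 3, 3 and 1 peaks, all in its 3′ UTR. A position at chromosome 14, 47321970 to 47322069, plus strand, was shared by all lists at rank 364 of 4432, 1002 of 6285, 226 of 6981 and 17 of 3034, the last tied as above. Of the other 4 positions, 1 was common to control and TBP and 3 were called in a single list. The authors' nearest-gene column also names Mapk1ip1l for peaks of its plus-strand neighbour Socs4, which are not counted here.

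The phosphatase genes with peaks were 4 of 24. Dusp3, which encodes VHR, a small phosphatase acting on ERK and JNK, had 2, 2, 3 and 1 peaks. Its leading 3′ UTR position (chromosome 11, 101973443 to 101973667, minus strand) was among the stronger ones in each list, with peaks at rank 273 of 4432, 97 of 6285, 269 of 6981 and 17 of 3034 (tied to 317). The deposited nearest-gene column gives Sost for 7 of the 8 Dusp3 peaks. The remaining Dusp3 positions were 25 bp wide and called in 1 list each.

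Dusp11, the gene with the most peaks over the 4 lists, had 3, 2, 3 and 4. Its product belongs to the family by sequence, but it is an RNA 5′ triphosphatase, not a MAP kinase phosphatase. Most of its peaks lay within 275 bp, across the last exon (9 of 9) and the 3′ UTR (chromosome 6, 85947443 to 85947717, minus strand), 5312 bp before the end of the RefSeq gene span. In TIP this stretch held 4 peaks of 25 or 50 bp at ranks 2110 to 2704 of 3034. In TBP it held 1 peak of 175 bp at rank 432 of 6285. The larger number of TIP peaks thus came with narrower peaks, lower in their list. A second position in exon 3 of 9 (85958608 to 85958682) was called in TBP and TCP.

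Dusp16, which encodes MKP-7, a phosphatase of JNK and p38, had 1, 1, 2 and 1 peaks. Control, TCP and TIP shared a 3′ UTR position (chromosome 6, 134718968 to 134719042, minus strand), at rank 1882, 3393 and 1959. The TBP peak lay elsewhere, in the 5′ UTR (134761083 to 134761107, rank 5377 of 6285), and the other TCP peak also lay in the 5′ UTR (134761208 to 134761257). Dusp4, which encodes the nuclear phosphatase MKP-2, had 1 peak, in TCP, in its 3′ UTR (chromosome 8, 34818805 to 34818879, plus strand, rank 3744 of 6981). Dusp4 and Dusp16 were 2 of the 10 MAP kinase phosphatases proper with a peak. The others, Dusp1 and Dusp6 among them, had none in the lists used here.

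Jun, the founding AP-1 subunit and a target of JNK, is a single-exon gene and was marked at 2 positions in every list. It had 2, 3, 2 and 2 peaks. The upstream position (chromosome 4, 95050134 to 95050358, minus strand) lies at the start of the 3′ UTR and reaches into the exon before it. Its strongest peak ranked 137 of 4432 in control, 353 of 6285 in TBP, 95 of 6981 in TCP and 17 of 3034 in TIP (tied to 317). The downstream 3′ UTR position (95049934 to 95050058) ranked 540, 508, 451 and 17, the last with the same tie. The third TBP peak (95050309 to 95050358, rank 2528) falls within the upstream position as covered by the TCP peak.

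Jund, the AP-1 subunit that is most constantly expressed, had 1 peak in every list at one 3′ UTR position (chromosome 8, 70700024 to 70700148, plus strand). Its place was the top 85.1% of the control list, in the tie at the lowest score, and the top 20.7%, 8.45% and 20.2% with TBP, TCP and TIP. How common such a rise was over all genes is not given here. The control peak was 25 bp wide and the others 75 to 125 bp. Junb, an immediate early AP-1 gene, had 1, 1, 2 and 0 peaks. The control peak lay in the 3′ UTR (chromosome 8, 84977168 to 84977192, minus strand, rank 2938 of 4432), whereas the TBP peak (84978018 to 84978042, rank 5377 of 6285) and both TCP peaks (rank 5229 of 6981) lay in the exon outside the UTRs. Junb therefore counts as marked in control, TBP and TCP, with no position common to control and a compound.

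Spred1, a membrane protein that brings neurofibromin to Ras and so blocks Raf activation, carried the strongest peak of the 25 genes in control, TBP and TCP. It had 2, 4, 2 and 3 peaks. Its leading position lay in the last exon (7 of 7) at chromosome 2, 117177321 to 117177570, plus strand. It ranked 12 of 4432 in control, 12 of 6285 in TBP and 10 of 6981 in TCP, and in TIP it was among the 301 peaks tied from rank 17. The peak was 250 bp wide in control, 225 bp in TBP and TCP and 100 bp in TIP, with the same downstream edge in all lists. A 3′ UTR position (117178196 to 117178345) followed in control (rank 376), TBP (rank 474) and TIP (rank 1017) and was without a peak in TCP, which had a peak further downstream (117178446 to 117178495) at rank 5932. The nearest-gene column gives the microRNA gene Mir674 for all 11 Spred1 peaks.

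Spry2, a Sprouty inhibitor of Ras signalling that is induced by ERK, had 0, 0, 1 and 1 peaks. The TCP peak lay in exon 2 of 2 (chromosome 14, 105893397 to 105893446, minus strand, rank 3744 of 6981) and the TIP peak in the 5′ UTR (105896683 to 105896707, rank 2449 of 3034). The gene was thus called in both lists at different places. Spred2, Spred3, Spry1, Spry3 and Spry4 had no peak.

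**Figure D2:**
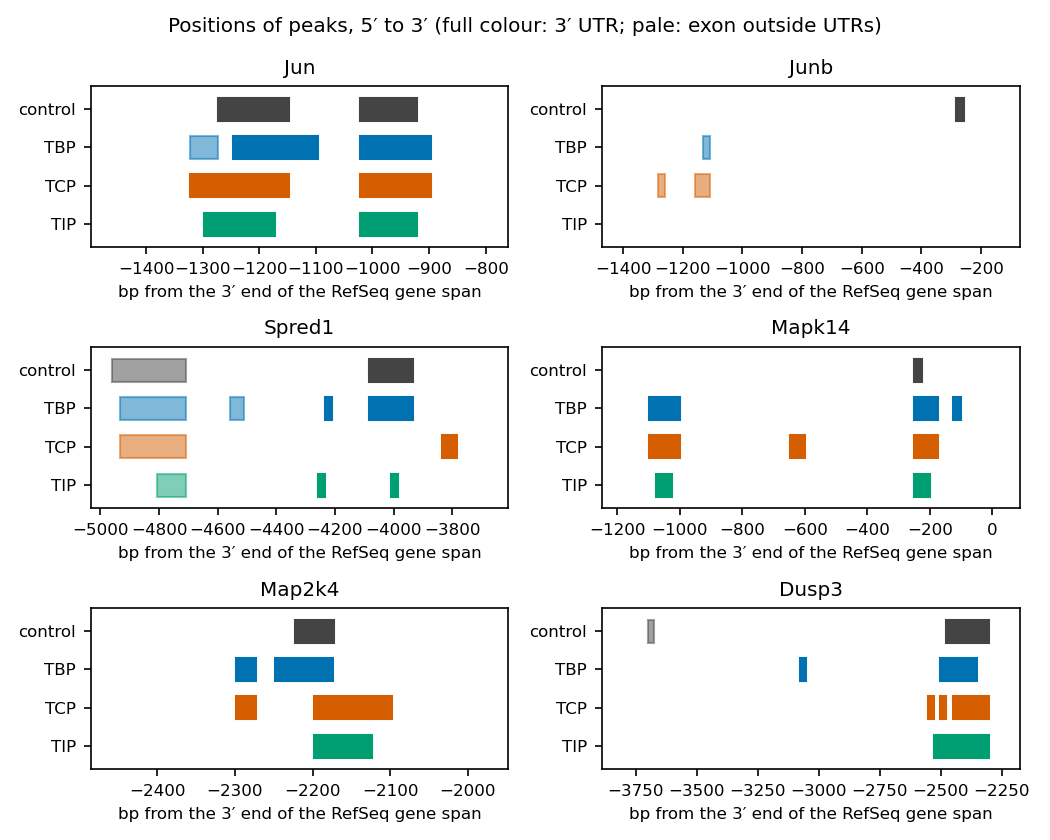
Peaks of Jun, Junb, Spred1, Mapk14, Map2k4 and Dusp3 in each list, by distance in bp from the 3′ end of the gene's RefSeq span, 5′ to 3′ from left to right. Each bar is 1 peak at its true width, in full colour for 3′ UTR and pale for other exon peaks. Jun has the same pair of positions in 4 lists, Junb has no position common to control and a compound, and the upstream Mapk14 position has bars in TBP, TCP and TIP and none in control.

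Each compound was set against the same control library, so the comparisons are not independent. A gene with a peak in the compound list but not in control is called gained here, and one with a peak in control but not in the compound list is called lost. After TBP, 3 genes were gained (Map2k7, Map3k3 and Map3k7) and 1 was lost (Map4k4). These are 12% (2.55 to 31.2) and 4% (0.101 to 20.4) of the 25, beside 25% gained and 9.89% lost among all 4296 genes. After TCP, 4 were gained (Map3k3, Map3k11, Dusp4 and Spry2) and 1 was lost (Map3k14), or 16% (4.54 to 36.1) and 4%, beside 30.6% and 9.17% of all genes. After TIP, 2 were gained (Map3k12 and Spry2) and 5 were lost (Junb, Map2k3, Map3k14, Map4k4 and Mapkapk2), or 8% (0.984 to 26.0) and 20% (6.83 to 40.7), beside 7.61% and 23.6%. Every interval includes the share of all genes, and the larger number lost in TIP goes with the shortest list.

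**Figure D3:**
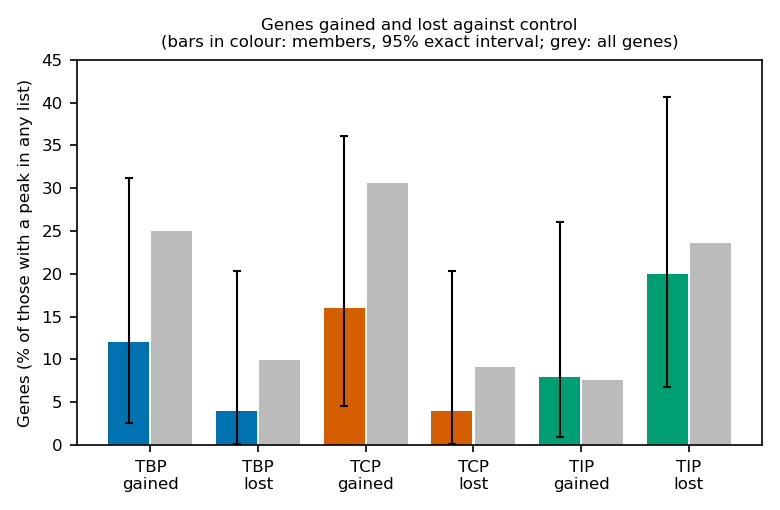
Share of genes gained and lost against control for TBP, TCP and TIP, as a percentage of genes with a peak in any list. Coloured bars are the 25 genes with exact 95% intervals (counting error only) and grey bars are all 4296 genes. Each interval includes the grey bar beside it, with 12% against 25% for genes gained in TBP.

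Except for Map3k3 in TCP, the genes that were gained had their strongest peak below the median score of its list. The strongest peaks of the 3 genes gained in TBP stood at the top 54.5% to 85.6% of the TBP list. Those of the 4 gained in TCP stood at the top 40.5% to 85.0%, and those of the 2 gained in TIP at the top 55.6% and 80.7%. The medians for these genes were the top 54.5% for TBP, 53.6% for TCP and 68.2% for TIP. Over all gained genes the median was the top 60.3% for TBP, 59.9% for TCP and 64.6% for TIP. The only control peaks of the genes lost in TBP (Map4k4) and TCP (Map3k14) stood at the top 85.1%, tied at the lowest score of the control list. For the genes lost in TIP, the strongest control peaks stood at the top 18.6% to 85.1%, with a median of 66.3%. The same values over all lost genes are not given here. The 13 genes present in every list had higher places, with a median strongest peak at the top 14.5%, 13.4%, 8.45% and 20.2% of the control, TBP, TCP and TIP lists. The same medians over all 1281 genes present in every list were 21.7%, 15.9%, 13.8% and 31.2%.

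When each list was limited to its 3034 best-scored peaks, to set lists of equal length side by side, some calls moved to other genes and some stayed. TBP then gained 1 (Jund) and lost 1 (Dusp16), neither of them called before, where 16.9% of all 2864 genes left were gained and 18% lost. TCP gained 2 (Jund and Map3k3) and lost 2 (Map2k3 and Dusp16), beside 17.8% and 18.4%, and of these Map3k3 had also been gained in the full lists. TIP gained 3 (Jund, Map3k12 and Spry2) and lost 2 (Map2k3 and Mapkapk2), beside 16.5% and 19.8%, and all but Jund had the same call in the full lists. The only control peak of Jund, at rank 3772, lay below this limit. Ties ran across the limit at ranks 2938 to 3290 in control, 2789 to 3085 in TBP and 2827 to 3094 in TCP. Which tied peaks were kept was thus not set by score. The only control peak of Junb was in such a tie and was left out, whereas the TCP peak of Map3k3 was in one and was kept. In all, 18 of the 25 genes kept a peak in some shortened list, and 11 had one in all 4. Limiting each list to peaks at or above its median score left 2830 genes. TBP then gained Jund and Map2k4 and lost Dusp16, beside 27.8% of all genes gained and 8.69% lost. TCP gained Jund, Map2k4, Map3k3 and Map4k4 and lost Map2k3, beside 34.1% and 9.61%. TIP gained Jund and Map2k4 and lost Map2k3, Mapk7, Mapkapk2, Dusp11 and Dusp16, beside 8.66% and 24.2%.

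**Figure D4:**
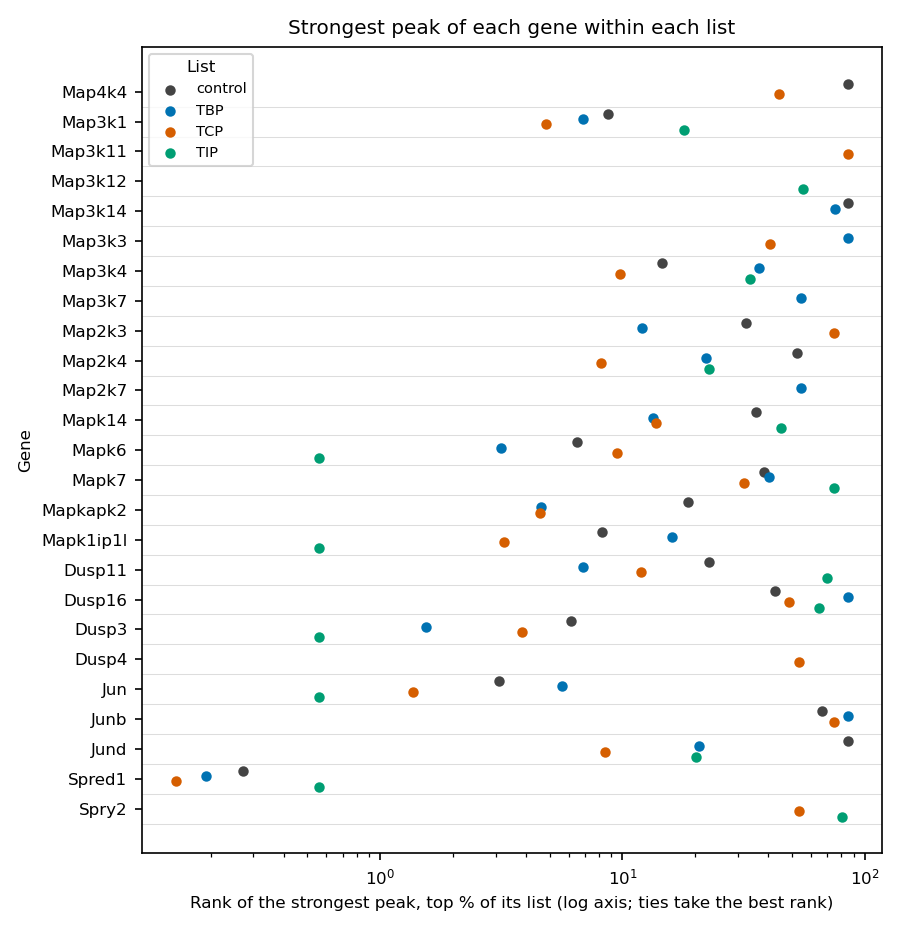
Rank of the strongest peak of each of the 25 genes in each list, as the top percentage of that list, on a log axis where left is stronger. Points are single peaks in 1 library, tied peaks take the best rank of the tie, and a missing point means no peak. Spred1 stands furthest left in control, TBP and TCP, while 5 TIP points at 0.560% share a tie of 301 peaks that reaches rank 317.

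When overlapping peaks of the 4 lists were merged, the 129 peaks made 56 positions. Of these, 14 were present in all 4 lists, 25% (14.4 to 38.4), 6 in 3 lists, 10.7% (4.03 to 21.9), 8 in 2 and 28 in 1 list, 50% (36.3 to 63.7). Over all genes 10.6% of 11513 positions were in all 4 lists, 11.1% in 3 and 60.6% in 1. The Mapk14 and Mapk6 positions with a peak for each compound and none in control are among those in 3 lists. How common that pattern was over all genes is not given here. The 14 positions lay in 12 of the 13 genes with a peak in every list, with a pair each in Jun and Map3k1, and Dusp16 was the exception. The Jun pair lies within 100 bp and the Map3k1 pair does not. Of the 28 positions called in 1 list, 14 were in TCP, 8 in TBP, 3 in control and 3 in TIP. In all, TCP covered 38 positions, TBP 34, control 25 and TIP 21. TCP and TBP, with the most positions called in 1 list, are also the longest lists. The same split over all genes is not given here.

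**Figure D5:**
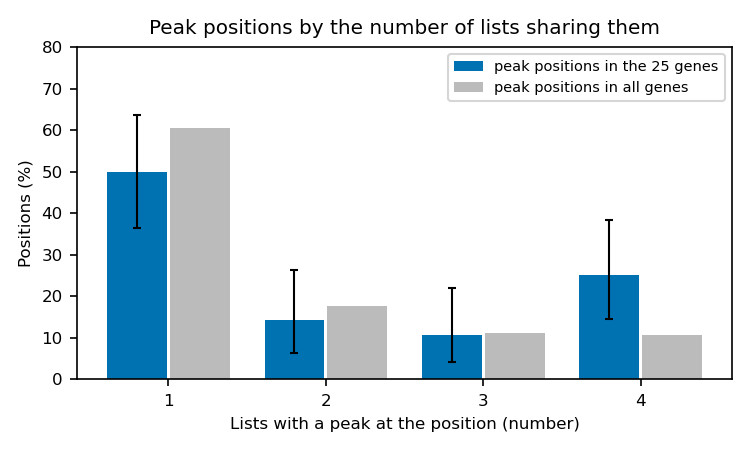
Percentage of merged peak positions that were present in 1, 2, 3 or 4 lists. Blue bars are the 56 positions in the 25 genes with exact 95% intervals (counting error only) and grey bars are the 11513 positions in all genes. Positions in all 4 lists made up 25% of the former and 10.6% of the latter.

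Peak by peak, 22 of 37 TBP peaks in these genes overlapped a control peak by at least 1 bp on the same strand, 59.5% (42.1 to 75.2), beside 40% of all TBP peaks. The counts were 18 of 40 for TCP, 45% (29.3 to 61.5), beside 35.4%, and 18 of 25 for TIP, 72% (50.6 to 87.9), beside 51.8%. Of the 17 genes with peaks in both control and TBP, 15 shared a position, all but Junb and Dusp16. For TCP it was 15 of 17, all but Junb and Map2k3. For TIP it was 13 of 13. Among all genes with peaks in both, 80.1%, 78.7% and 75.5% shared a position.

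Over the 4 lists, 81 of the 129 peaks were annotated to 3′ UTRs, 41 to exons outside UTRs and 7 to 5′ UTRs. The share in 3′ UTRs was 66.7% (46.0 to 83.5) for control, 62.2% (44.8 to 77.5) for TBP, 60% (43.3 to 75.1) for TCP and 64% (42.5 to 82.0) for TIP. All peaks of those lists gave 50.9%, 50.7%, 48.5% and 48.8%. By gene, 12 of the 25 had 3′ UTR peaks only, among them Mapk14, Map2k3, Map2k4, Mapkapk2 and Jund. Map3k4, Map3k11 and Mapk7 had exon peaks only, and the other 10 had a mixture. The 5′ UTR peaks lay in Mapk6, Dusp16 and Spry2. No peak of these genes spanned over 500 bp, and genes with a peak had a median of 1, 1.5, 2 and 1 peaks, beside 1 for all genes in each list. The means were 1.5, 1.85, 1.9 and 1.67, beside 1.76, 1.98, 2.03 and 1.67 for all genes.

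Further genes of the pathway were counted from a list of 94 that do not carry the prefixes, of which 43 had a peak in some list. In control, TBP, TCP and TIP, 27, 33, 36 and 20 of the 43 had a peak. Over all 4296 genes with a peak the shares were 57.5%, 72.6%, 78.9% and 41.5%. Of these 43, TBP gained 25.6% and lost 11.6%, TCP gained 30.2% and lost 9.30%, and TIP gained 4.65% and lost 20.9%, beside 25% and 9.89%, 30.6% and 9.17%, and 7.61% and 23.6% of all genes. Of 31 upstream Ras and Raf genes, 12 had a peak in some list, and 8, 9, 11 and 8 had one in the lists in turn. Rasa1, a Ras GTPase-activating protein, had 3, 2, 3 and 2 peaks, and Sos1, a Ras guanine nucleotide exchange factor, had 1, 1, 2 and 1. Among 18 inputs to the stress kinases, 9 had a peak in some list, and the numbers per list were 7, 8, 8 and 5. Tab2, the adaptor that links ubiquitin chains to TAK1, had 3, 6, 7 and 2 peaks, and the ubiquitin ligase Traf6 had 2 in every list.

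Of 35 downstream kinases and transcription factors, 17 had a peak in some list, and 8, 11, 13 and 5 had one in the lists in turn. Over all genes with a peak the shares were 57.5%, 72.6%, 78.9% and 41.5%, so the order of these numbers is that of all genes. Elk4, an ERK-regulated partner of serum response factor, had 3, 3, 4 and 3 peaks. Its relative Elk3 had 0, 2, 3 and 0, and Atf3, a stress-induced partner of Jun, had 0, 0, 2 and 0. Among 10 further brakes, 5 had a peak in some list, and the numbers per list were 4, 5, 4 and 2. Ppm1a, a phosphatase that acts on p38, had 3, 2, 5 and 0 peaks, and Ppp2ca, the catalytic subunit of protein phosphatase 2A, had 2, 4, 1 and 2.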

How the data were processed

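Each list, as deposited by the authors, holds 1 row per peak with its coordinates, strand, annotation, nearest gene and score. No scale for the score is stated per the file headers, and it was used for ranks within a list. How peaks were called, and against what, is not given in the sources used here. The submitters' processing notes name HISAT2 2.1.0, ChIPseeker 1.26 and HOMER 4.11, among others, with no role.

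Peaks were placed in the gene that holds them on their strand: the gene of the exon annotation (44.2% of 20732 peaks), else the listed nearest gene where its span holds the peak on that strand (37.7%), else a single RefSeq gene over the peak (16.3%). This left 362 peaks unplaced. Small RNA genes were passed over. Overlap needed 1 bp on the same strand. The overlap step and the last placement rule, a single RefSeq gene over the peak, were tested on simulated peaks. The exon and nearest-gene rules, which placed most peaks, were not tested in this way. Python 3.11.15, pandas 2.3.3 and SciPy 1.17.1 were used. Peaks of 1 transcript are not independent.

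Members and lists were chosen with earlier results of these data known. Named in detail were the 10 genes with the most peaks, genes gained or lost with at least 2 compounds, and every AP-1, Ras feedback and Dusp gene, ties in alphabetical order; the others are given more briefly. From the pathway list, 1 gene that carries a member prefix was left out, and the genes named from it were chosen after their values were seen. No genome of this build was used, so no peak sequence is shown. Results for a few genes are not reported here.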

Additional observations from a re-analysis of the deposited data

Results flagged for a closer look

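In TCP, 1 peak lay over Jund on the minus strand (chromosome 8, 70700029 to 70700078, rank 4645 of 6981), where no minus-strand gene was found and where control, TBP and TIP had none. It overlaps the plus-strand Jund peak of the same list (70700024 to 70700148, rank 590). It is listed because it is a signal outside the counted peaks that control lacks. Such opposite-strand pairs made up 3.77% of TCP peaks.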

How the results depend on the processing

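Of 133 values recomputed under the alternatives, 118 stayed within 1.5 times the reported count or within the reported interval. Limiting lists to peaks at or above their median score left 17, 24, 26 and 16 peaks of these genes in control, TBP, TCP and TIP, and 8 genes with a peak in all 4 lists. It took the 5′ UTR share in TCP to 0%. Under this limit the numbers gained and lost were near the reported ones, but mostly for other genes. Map3k3 in TCP and Map2k3 and Mapkapk2 in TIP had the same call in the full lists. Equal list length left 23 peaks in TBP and 23 in TCP and also took that share to 0%. It gave 1 gene gained in TBP, 2 gained and 2 lost in TCP, and 2 lost in TIP. The nearest-gene column gave 2 genes lost in TBP and 1 gained in TIP. Leaving out peaks over 500 bp changed no value, and a stricter overlap, either strand or leaving out Mapk1ip1l kept every value within those limits. Merging peaks within 100 bp, chosen after seeing the data, gave 47 positions, 13 of them in all 4 lists and 20 in 1. It joined the Jun pair into a single position, and joined the Mapk6 position without a control peak to the one shared by all lists. Replicates could not be left out with 1 library per condition. No paired analysis was possible because each group has 1 sample and no test was run. Depth is unknown, so peaks that a deeper library might add cannot be counted.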
